A study of Mus musculus with 6 samples.

Results

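The Il11 and gp130 cytokine axis comprised the ligand genes Il11, Il6 and Lif, the receptor genes Il6st (gp130), Il11ra1 and Lifr, the transcription factor gene Stat3 and its feedback inhibitor Socs3. These 8 genes were found by symbol among the 14526 genes of the expression table, from a list of 9; Osmr, the ninth, was not analysed here. The genes were chosen by symbol with the normalised read counts of this same comparison, siMnt against siNTC, already known, so the members' differences are a description, with no p-value. The members stayed in the fit of all genes, and how many passed its threshold is given below only beside the share of all genes that did; since the same values chose the members, those counts are no independent test. Averaged over the 6 libraries, 7 members reached 10 normalised read counts and entered the fit, and Il6, at 2.03, did not.

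Interleukin 11, interleukin 6 and leukaemia inhibitory factor (Lif) belong to the family of cytokines that signal through gp130, the shared receptor chain encoded by Il6st. Il11 and Il6 first bind a ligand-specific chain, Il11ra1 for Il11, and then gp130, whereas Lif brings gp130 together with Lifr. The receptors activate Janus kinases, which phosphorylate Stat3, and Stat3 induces Socs3, which binds gp130 and the kinases and shuts the signal off. In epithelial cells and fibroblasts TGF-beta is a known inducer of Il11, through Smad proteins and AP-1 (Jun and Fos) factors. Il11 is known for its part in fibrosis and in cancer of the mammary gland.

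The sequences before the transcription start of the 3 ligand genes and of Socs3 are shown. These genes include the member with the largest fall, and each holds an AP-1 or a STAT motif, which no other member does. For Il11 the window with the AP-1 motif is shown. They were taken from RefSeq (GRCm38.p6) and run 5′ to 3′ on the gene's strand over the 250 bases before the start. Capitals mark an AP-1 motif (TGANTCA), a Smad box (CAGAC or its reverse complement GTCTG) or a STAT motif (TTCNNNGAA).
Il11, chr7:4778142-4778391, minus strand: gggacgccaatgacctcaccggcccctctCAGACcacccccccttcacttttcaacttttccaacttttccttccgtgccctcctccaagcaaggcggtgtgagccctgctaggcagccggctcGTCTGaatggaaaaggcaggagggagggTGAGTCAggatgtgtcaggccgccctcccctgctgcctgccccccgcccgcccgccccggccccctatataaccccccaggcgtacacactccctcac
Lif, chr11:4257318-4257567, plus strand: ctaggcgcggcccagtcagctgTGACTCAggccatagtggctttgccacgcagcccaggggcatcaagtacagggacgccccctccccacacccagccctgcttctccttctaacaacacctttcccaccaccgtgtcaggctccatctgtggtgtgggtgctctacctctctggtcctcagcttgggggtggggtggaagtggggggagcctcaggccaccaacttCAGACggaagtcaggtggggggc
Il6, chr5:30012864-30013113, plus strand: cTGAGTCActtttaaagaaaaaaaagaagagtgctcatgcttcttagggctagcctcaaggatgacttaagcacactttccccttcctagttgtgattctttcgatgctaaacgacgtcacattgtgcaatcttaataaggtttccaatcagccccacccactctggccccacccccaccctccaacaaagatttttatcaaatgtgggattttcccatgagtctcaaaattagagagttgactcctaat
Socs3, chr11:117969367-117969616, minus strand: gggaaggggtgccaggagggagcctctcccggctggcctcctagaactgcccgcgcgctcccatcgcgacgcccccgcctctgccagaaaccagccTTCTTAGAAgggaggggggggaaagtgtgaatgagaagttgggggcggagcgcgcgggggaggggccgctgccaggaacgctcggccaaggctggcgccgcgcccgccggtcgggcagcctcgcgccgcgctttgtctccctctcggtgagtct
The table held 11 windows of 300 bases (250 before and 50 after the start) for the 8 members, 2 of them each for Il11, Il11ra1 and Lifr. The AP-1 motif was found in a window of each of the 3 ligand genes, 98 bases before the start in Il11, 228 in Lif and 249 in Il6, and in no window of the other members; 7.81% of all 32851 windows held it. The STAT motif was found only in Socs3, 154 bases before the start, against 8.30% of all windows. A Smad box, which 49.6% of all windows hold, occurred in 7 of the 11 windows, among them both of Il11. The canonical E-box CACGTG, the sequence bound by Mnt with Max, was in 0 of the 11 windows and in 7.15% of all windows. All motifs were searched on both strands, and their matches did not overlap one another in the 4 sequences shown.

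RNA was sequenced from NMuMG cells, a line of mouse mammary epithelium that undergoes epithelial to mesenchymal transition under TGF-beta. 3 libraries came from cells given small interfering RNA against the repressor gene Mnt (siMnt) and 3 from cells given a non-targeting RNA (siNTC). In both groups the RNA was given together with TGF-beta 16 hours after plating, both were renewed on day 2, and cells were taken on day 4, so all 6 libraries are from cells under TGF-beta. The knockdown was transient and was not complete. Mnt stood at 613, 557 and 749 normalised read counts in siMnt replicates 1, 2 and 3, against 1316, 896 and 1596 in siNTC replicates 1, 2 and 3 (adjusted p = 0.0546; fitted with replicate number as a block, 0.00442; limma).

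The libraries held between 22323050 and 42193294 recovered reads. siNTC replicate 3 lay nearer to siMnt than the other controls did. Over all tested genes its log2 levels correlated at 0.974, 0.972 and 0.987 with siMnt replicates 1, 2 and 3. For siNTC replicates 1 and 2 these values were 0.945 to 0.964. siNTC replicate 3 correlated at 0.979 and 0.963 with siNTC replicates 1 and 2, which correlated at 0.981 with each other. A further measure took the 1279 tested genes whose mean log2 level differed at least 2-fold between siMnt and siNTC replicates 1 and 2. Over these, siNTC replicate 3 lay a median of 59.0% of the way towards siMnt. Since the other controls picked these genes, a place part of the way can come from the selection alone. Of the members with such a gap, Il11 had this place at 54.4%, Lifr at 32.9% and Lif at 119%, so that for Lif the third control lay beyond the siMnt mean. With smaller gaps, the place was 82.3% for Il6st, 79.5% for Stat3 and 32.1% for Socs3. For Il11ra1 the gap was only -0.07 on the log2 scale and the place has no use. Group differences of the tested members are therefore also given without this library. In bulk RNA, fewer cells of a type and less RNA per cell cannot be told apart.

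Il11 was the member with the largest difference. It stood at 181, 173 and 289 normalised read counts in siMnt replicates 1, 2 and 3, against 3924, 4701 and 829 in siNTC replicates 1, 2 and 3. Every siMnt library lay below every siNTC library, and the lowest control was siNTC replicate 3. The means were 214 ± 65.0 in siMnt and 3152 ± 2048 in siNTC (SD, n = 3 each), the siMnt mean being 6.80% of the siNTC mean. The log2 fold change, siMnt minus siNTC on log2(normalised read count + 1), was -3.57 ± 0.59 (SE). Within replicate numbers 1, 2 and 3 siMnt stood at 4.60%, 3.68% and 34.9% of siNTC, so the difference was in the same direction in all 3 numbers and much smaller in the third. Leaving out siNTC replicate 3 gave -4.36, and leaving out each of the other 5 libraries in turn gave values up to -3.11.

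Lif, which keeps mouse embryonic stem cells undifferentiated, stood at 1389, 2249 and 929 in siMnt replicates 1, 2 and 3, against 2302, 4404 and 1220 in siNTC replicates 1, 2 and 3. The groups overlapped, since siMnt replicate 2 was above siNTC replicate 3, but within each number siMnt was the lower, at 60.3%, 51.1% and 76.1% of siNTC. The means were 1523 ± 670.2 in siMnt and 2642 ± 1619 in siNTC (SD, n = 3 each), with a log2 fold change of -0.70 ± 0.47, the SE being 0.13 when replicate number was a block. It was -1.16 without siNTC replicate 3 and -0.23 without siNTC replicate 2. Il6, an inflammatory cytokine, was at the limit of detection, with 4, 4 and 0 recovered reads in siMnt replicates 1, 2 and 3 against 1, 2 and 0 in siNTC replicates 1, 2 and 3. With 8 reads in siMnt and 3 in siNTC in all, no fold change is given for Il6.

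**Figure D1:**
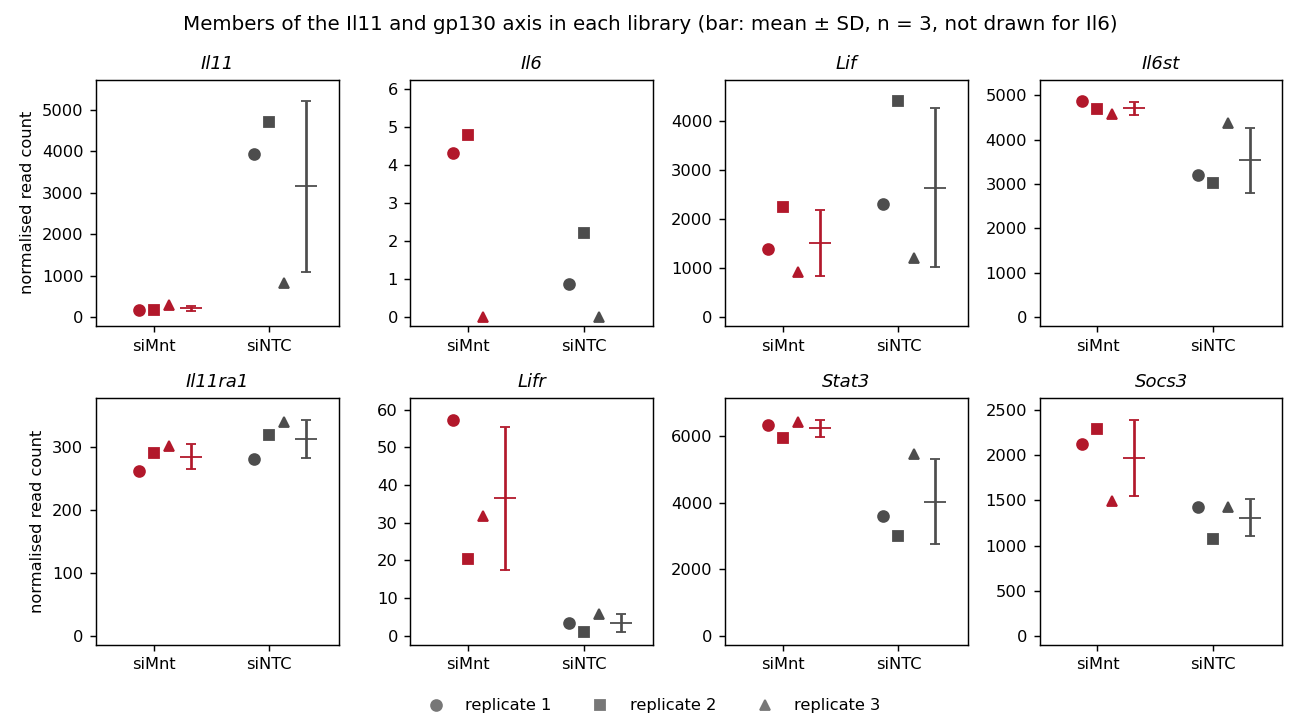
Normalised read counts of the 8 members in each library (vertical axes, linear, one scale per gene), with siMnt in red and siNTC in grey and one symbol per replicate number; the horizontal mark and bar give the mean and SD of 3 libraries. Il11 lies between 173 and 289 in siMnt and between 829 and 4701 in siNTC, and siNTC replicate 3 (grey triangle) is the control nearest to siMnt for Il11, Il6st, Stat3 and Lifr.

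Of the further ligand genes of the family, Clcf1, a cytokine that also signals through gp130, stood at 2842, 3071 and 3767 in siMnt replicates 1, 2 and 3, against 4071, 3872 and 4857 in siNTC replicates 1, 2 and 3. The groups did not overlap. The means were 3227 ± 482 in siMnt and 4267 ± 520.5 in siNTC (SD, n = 3 each), with a log2 fold change of -0.41 ± 0.15. The threshold was a Benjamini-Hochberg adjusted p under 0.05 over all 12568 tested genes, which 3.93% of them passed (limma). Clcf1 passed with the block alone (adjusted p = 0.0331, against 0.151 without the block, limma). Oncostatin M (Osm), another ligand of gp130, was barely detected, with 0, 1.19 and 0 in siMnt replicates 1, 2 and 3 and 6.11, 6.65 and 0 in siNTC replicates 1, 2 and 3.

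Among the receptors, Il6st and Lifr were higher in siMnt and Il11ra1 overlapped. Il6st, the shared chain, stood at 4860, 4694 and 4567 in siMnt replicates 1, 2 and 3, against 3199, 3019 and 4372 in siNTC replicates 1, 2 and 3. Every siMnt library was higher than every siNTC library, by a small margin over siNTC replicate 3. The log2 fold change was 0.43 ± 0.15, and 0.60 without siNTC replicate 3; within numbers 1, 2 and 3 the differences were 0.60, 0.64 and 0.06.

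Il11ra1, the chain specific to Il11, stood at 263, 291 and 301 in siMnt replicates 1, 2 and 3, against 281, 319 and 340 in siNTC replicates 1, 2 and 3. The groups overlapped and the log2 fold change was -0.13 ± 0.15, with within-number differences of -0.10, -0.13 and -0.17. Its level is uncertain, because 60.0% of the 50-base stretches of its longest transcript also occur in transcripts of the near-identical genes Il11ra2 and Gm13305, and its exons overlap those of Ccl27a on the opposite strand, which counting without strand would not separate.

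Lifr, the second chain of the Lif receptor, stood at 57.3, 20.3 and 31.9 in siMnt replicates 1, 2 and 3, against 3.49, 1.11 and 5.81 in siNTC replicates 1, 2 and 3. The siMnt values rest on 53, 17 and 26 reads and the siNTC values on 4, 1 and 9, so the size of the difference is poorly known although the groups did not overlap. The means were 36.5 ± 18.9 in siMnt and 3.47 ± 2.35 in siNTC (SD, n = 3 each). The log2 fold change was 3.10 ± 0.58, with within-number differences of 3.70, 3.34 and 2.27, and it was 2.23 with a pseudocount of 5. Lifr passed the minimum mean of 10 only through the siMnt libraries.

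Of 9 further receptor genes listed, 3 were in the table and tested, and 1 passed, against 3.93% of all tested genes, 2.56% higher. It was the leptin receptor Lepr, a relative of gp130 that also signals through Stat3. Lepr rose to 638, 562 and 670.3 in siMnt replicates 1, 2 and 3, against 204, 199 and 246 in siNTC replicates 1, 2 and 3 (log2 fold change 1.52 ± 0.16, adjusted p = 0.0107, limma). All siMnt libraries were above all siNTC libraries, as for 15.6% of all tested genes. For Lepr siNTC replicate 3 lay only 17.6% of the way towards siMnt. The call was lost without siMnt replicate 1, siMnt replicate 2 or siNTC replicate 1, where limma called 0 of all tested genes. Il6ra, the chain specific to Il6, stood at 261 ± 16.4 in siMnt and 207 ± 56.3 in siNTC (SD, n = 3 each; adjusted p = 0.346, limma).

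Stat3, the transcription factor that gp130 activates, stood at 6335, 5946 and 6417 in siMnt replicates 1, 2 and 3, against 3599, 3011 and 5465 in siNTC replicates 1, 2 and 3. The groups did not overlap, and siNTC replicate 3 was the nearest control to siMnt. The means were 6233 ± 252 in siMnt and 4025 ± 1281 in siNTC (SD, n = 3 each). The log2 fold change was 0.68 ± 0.21, with within-number differences of 0.82, 0.98 and 0.23, and it was 0.92 without siNTC replicate 3. The exons of Stat3 and Stat5a overlap on opposite strands, but only 0.384% of the 50-base stretches of its longest transcript are shared.

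Socs3 stood at 2128, 2290 and 1491 in siMnt replicates 1, 2 and 3, against 1426, 1071 and 1428 in siNTC replicates 1, 2 and 3. The lowest siMnt library lay just above the highest siNTC library. The log2 fold change was 0.58 ± 0.19, with within-number differences of 0.58, 1.10 and 0.06, and it was 0.65 without siNTC replicate 3. The transcripts of gp130, Stat3 and Socs3 were thus higher in siMnt, and those of Il11 and Lif lower, in all 3 replicate numbers, with the smallest differences in number 3 for each of the 5 genes.

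**Figure D2:**
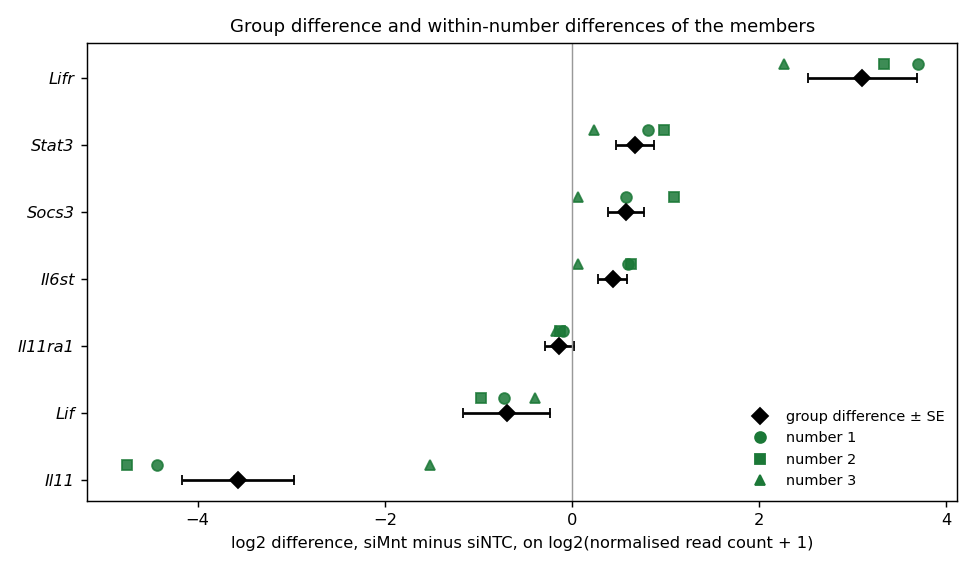
Log2 differences of the 7 tested members, siMnt minus siNTC, on log2(normalised read count + 1): diamonds with bars give the group difference and its SE, and green symbols the difference within each replicate number. All 3 numbers lie on the same side of 0 for each gene, from -4.76 to -1.52 for Il11 and from 2.27 to 3.70 for Lifr, and number 3 has the smallest difference for all genes but Il11ra1.

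At an adjusted p under 0.05 over all tested genes (limma), 2 of the 7 tested members were called, Il11 lower and Lifr higher, where 3.93% of all tested genes were called, 2.56% higher and 1.37% lower. With replicate number as a block 4 were called, Il11 and Lif lower and Lifr and Stat3 higher, against 15.9% of all tested genes, 9.33% higher and 6.56% lower. Leaving out siNTC replicate 3, the 4 called were Il11 lower and Il6st, Lifr and Stat3 higher, against 16.0% of all, 9.51% higher and 6.5% lower. On recovered reads edgeR called the same 2 members as limma, against 3.54% of all tested genes, 2.29% higher and 1.25% lower. DESeq2 called Il11 lower and Lifr, Stat3 and Socs3 higher, against 11.6%, of which 6.71% higher and 4.89% lower. The groups did not overlap for 5 of the 7, against 31.5% of all tested genes, 15.6% higher and 15.9% lower. Since the members were chosen with this comparison known, nothing is read from these counts. By limma 0 members were called when any one of siMnt replicates 1, 2 and 3 and siNTC replicates 1 and 2 was left out. In these fits 3 to 5 members had an unadjusted p under 0.05, as did 1816 to 2987 of all 12568 tested genes. Of all 12568 tested genes these 5 fits called 0, 0, 125, 0 and 217, so in 3 of them no gene passed. For the same 5 sets of libraries edgeR called 0 or 1 member, against 0, 0, 114, 0 and 215 of all tested genes. DESeq2 called 1 to 3 members there, against 447, 554, 902, 710 and 1456 of all tested genes.

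Compared per kilobase of the longest annotated transcript, the order of the members differed between the groups. In siMnt cells Stat3 was highest, at a mean level of 1032 normalised read counts per kb, followed by Socs3 at 772, Il6st at 542, Lif at 378, Il11 at 110 and Il11ra1 at 109, with Lifr at 3.78 and Il6 at 1.29. Il6st and Lif, and Il11 and Il11ra1, overlapped between libraries. In siNTC cells Il11 was highest by its mean level, 1617 per kb, followed by Stat3 at 666, Lif at 656, Socs3 at 513, Il6st at 407 and Il11ra1 at 120.4, with Il6 at 0.439 and Lifr at 0.36. There each neighbour in the order from Il11 to Il6st overlapped with the next, Il11 itself lying between 426 and 2412, while Il11ra1 (108 to 131) lay below all of them. In siMnt libraries the level per kb of Il11, 88.8 to 148, overlapped that of its own receptor chain, 101 to 116, and in every siNTC library it was higher. Lifr was far below Il6st in all 6 libraries.

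**Figure D3:**
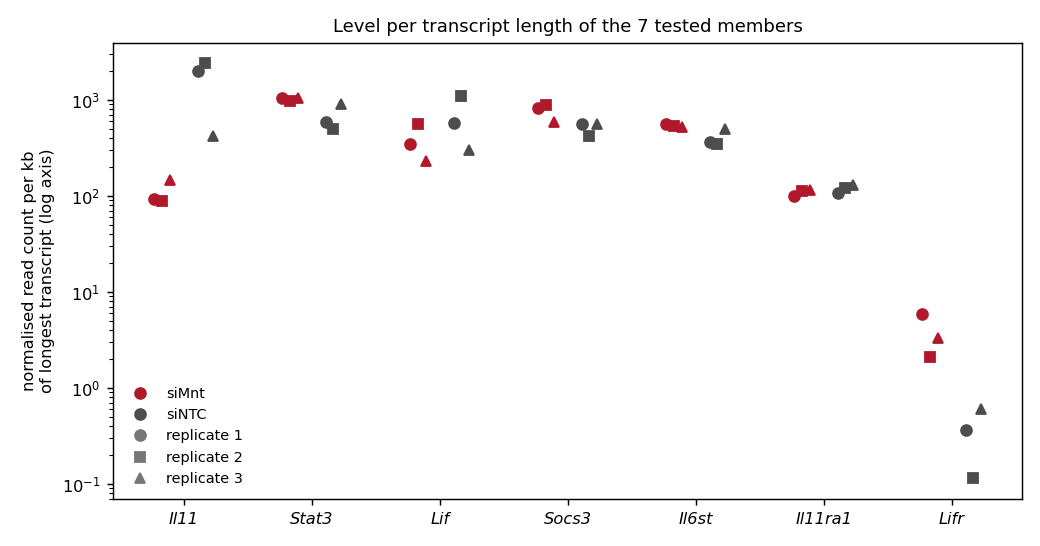
Level of the 7 tested members per kb of the longest transcript (vertical log axis) in siMnt (red) and siNTC (grey) libraries, one symbol per replicate number. Il11 spans 88.8 to 148 in siMnt and 426 to 2412 in siNTC, Il11ra1 stays between 101 and 131 in all libraries, and Lifr reaches at most 5.94.

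The genes whose pattern over the 6 libraries was most like that of Il11 were Mmp9, Cmah, Prnd, Ctsw, Rdh10 and Tagln. Likeness was the root mean square distance between log2 profiles, each centred on its own mean, among 11210 other genes averaging 50 or more normalised read counts, and the 6 distances ran from 0.40 to 0.64. They span different functions: Mmp9 is a gelatinase, Cmah a sialic acid hydroxylase, Rdh10 a retinol dehydrogenase and Tagln an actin-binding protein of smooth muscle. Tagln stood at 78.9, 111 and 87.0 in siMnt replicates 1, 2 and 3, against 1331, 2414 and 132 in siNTC replicates 1, 2 and 3. Ctsw, a cathepsin, stood at 121, 97.8 and 162 in siMnt replicates 1, 2 and 3, against 1112, 1364 and 213 in siNTC replicates 1, 2 and 3. In each of the 6 genes, as in Il11, siNTC replicate 3 was the lowest control and still above every siMnt library. Since the genes were picked by their likeness to Il11 over these same libraries, this shared order is largely built in. Among the members Lif was nearest to Il11, at a distance of 1.60 and rank 302 in the order of nearness.

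**Figure D4:**
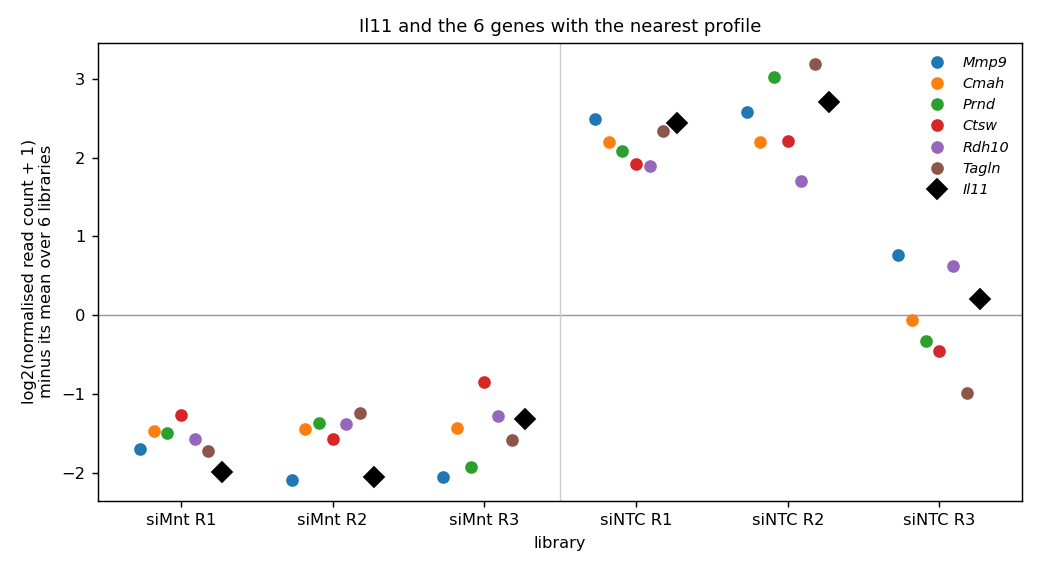
Log2(normalised read count + 1) of Il11 (black diamonds) and the 6 genes with the nearest profile (coloured points), each minus its mean over the 6 libraries, by library. All 7 genes lie below their mean in the 3 siMnt libraries and well above it in siNTC replicates 1 and 2, with siNTC replicate 3 in between; the distances from Il11 run from 0.40 to 0.64.

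Among the Janus kinases, other STATs and adaptors, 4 genes passed with the block alone: the kinase gene Jak3, Stat6 and the adaptor gene Gab1 rose and the phosphatase gene Ptpn11 fell, where 15.9% of all tested genes passed with the block. Ptpn11, which carries the signal of gp130 to the Ras pathway, stood at 5217, 4777 and 5839 in siMnt replicates 1, 2 and 3, against 9001, 7306 and 7622 in siNTC replicates 1, 2 and 3 (log2 fold change -0.59 ± 0.13, adjusted p = 0.0142 with the block and 0.0502 without it, limma). Stat6, the transcription factor of interleukin 4 signalling, stood at 2875 ± 59.6 in siMnt and 2196 ± 138 in siNTC, and Gab1 at 1387 ± 251 in siMnt and 944 ± 106 in siNTC (SD, n = 3 each). The groups did not overlap for these 4 genes, as for 31.5% of all tested genes. The median log2 fold change of the 17 tested genes of this list was 0.17, against -0.01 over all tested genes.

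Of 16 tested other inhibitors of the pathway 0 passed by limma, against 3.93% of all tested genes. An unadjusted p under 0.05 (limma) was found for 3 of them, and for 2938 of all 12568 tested genes. On this list edgeR called 0 and DESeq2 1, against 3.54% and 11.6% of all tested genes. The most expressed were the phosphatase genes Dusp3, at 2644 ± 323 in siMnt and 3738 ± 308 in siNTC, and Ptpn1, at 2976 ± 306 in siMnt and 2891 ± 475 in siNTC (SD, n = 3 each). With the block 1 rose, Ptpn6, and 2 fell, Dusp3 and Socs2, against 15.9% of all tested genes, 9.33% higher and 6.56% lower. The median log2 fold change of the list was 0.02.

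Ifitm3 and Muc1 were the STAT3 targets that passed. Of 24 tested STAT3 target genes 2 rose and 0 fell, against 3.93% of all tested genes, and the list's median log2 fold change was 0.23, against -0.01 over all tested genes. Ifitm3, an interferon-induced membrane protein that restricts viral entry, rose to 279, 248 and 261 in siMnt replicates 1, 2 and 3, against 34.1, 39.9 and 89.8 in siNTC replicates 1, 2 and 3 (log2 fold change 2.38 ± 0.35, adjusted p = 0.0205, limma). The mucin gene Muc1 rose with a log2 fold change of 1.72 ± 0.33 (adjusted p = 0.0368, limma). The groups did not overlap for either gene, as for 31.5% of all tested genes. With the block 7 rose and 4 fell, against 15.9% of all tested genes. Leaving out siNTC replicate 3 gave 6 and 4, against 16.0% of all tested genes. The 3 Pim kinase genes, survival kinases downstream of Stat3, split under the block: Pim1 was lower (log2 fold change -0.74) and Pim2 and Pim3 higher (0.64 and 0.46). Leaving out siNTC replicate 2 kept Ifitm3, lost Muc1 and added Il1r1 as lower (limma). Without siMnt replicate 1, 2 or 3 or siNTC replicate 1, 0 genes of the list passed (limma). In those fits 6 or 7 had an unadjusted p under 0.05, as did 1816 to 2272 of all 12568 tested genes.

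Acute-phase genes, which IL-6-type cytokines induce in hepatocytes, changed in both directions. Of 22 listed, 18 were in the table and 14 were tested, and 4 rose and 3 fell, against 3.93% of all tested genes. The list had been drawn up with part of these results known. Those that rose were haptoglobin (Hp) and all 3 chains of fibrinogen (Fga, Fgb and Fgg), and those that fell were the 3 orosomucoid genes Orm1, Orm2 and Orm3. Fgg stood at 32.4, 33.4 and 27.0 in siMnt replicates 1, 2 and 3, against 0, 2.22 and 3.88 in siNTC replicates 1, 2 and 3 (log2 fold change 3.67 ± 0.63, adjusted p = 0.0282, limma). Fgg reached the minimum mean of 10 only through the siMnt libraries, as Orm2 did only through the siNTC libraries, so these genes could enter the fit only by differing. Fgb, the most expressed of the 3 chains by read count, stood at 2106, 1894 and 1779 in siMnt replicates 1, 2 and 3, against 51.5, 176 and 648 in siNTC replicates 1, 2 and 3 (3.40 ± 0.75, adjusted p = 0.0487, limma). Groups did not overlap for any of the 7 genes, nor for 31.5% of all tested genes. For Hp and each fibrinogen chain siNTC replicate 3 was the highest control.

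The orosomucoid genes are near-identical copies of one another, so reads may be split among them. Orm1 stood at 759 ± 92.1 in siMnt and 1375 ± 209 in siNTC, Orm2 at 8.48 ± 4.73 in siMnt and 83.4 ± 41.0 in siNTC, and Orm3 at 135 ± 30.1 in siMnt and 419 ± 170 in siNTC (SD, n = 3 each). Fga, Fgb and Orm3 were named after their values were seen. On recovered reads DESeq2 called the same 7 genes, whereas edgeR called 5, without Fga and Fgb. Without a trend in the variance model limma called only Fgg and Orm2, and with a minimum mean of 50 only Hp, Orm1 and Orm3. With the block 7 acute-phase genes rose and 3 fell, complement C3, hemopexin (Hpx) and Saa3 being the further 3, against 15.9% of all tested genes. By limma 0 of the list passed without any one of siMnt replicates 1, 2 and 3 and siNTC replicates 1 and 2. In these fits 7 to 9 had an unadjusted p under 0.05, as did 1816 to 2987 of all 12568 tested genes. Without siNTC replicate 3, 7 rose and 3 fell, against 16.0% of all tested genes, 9.51% higher and 6.5% lower.

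**Figure D5:**
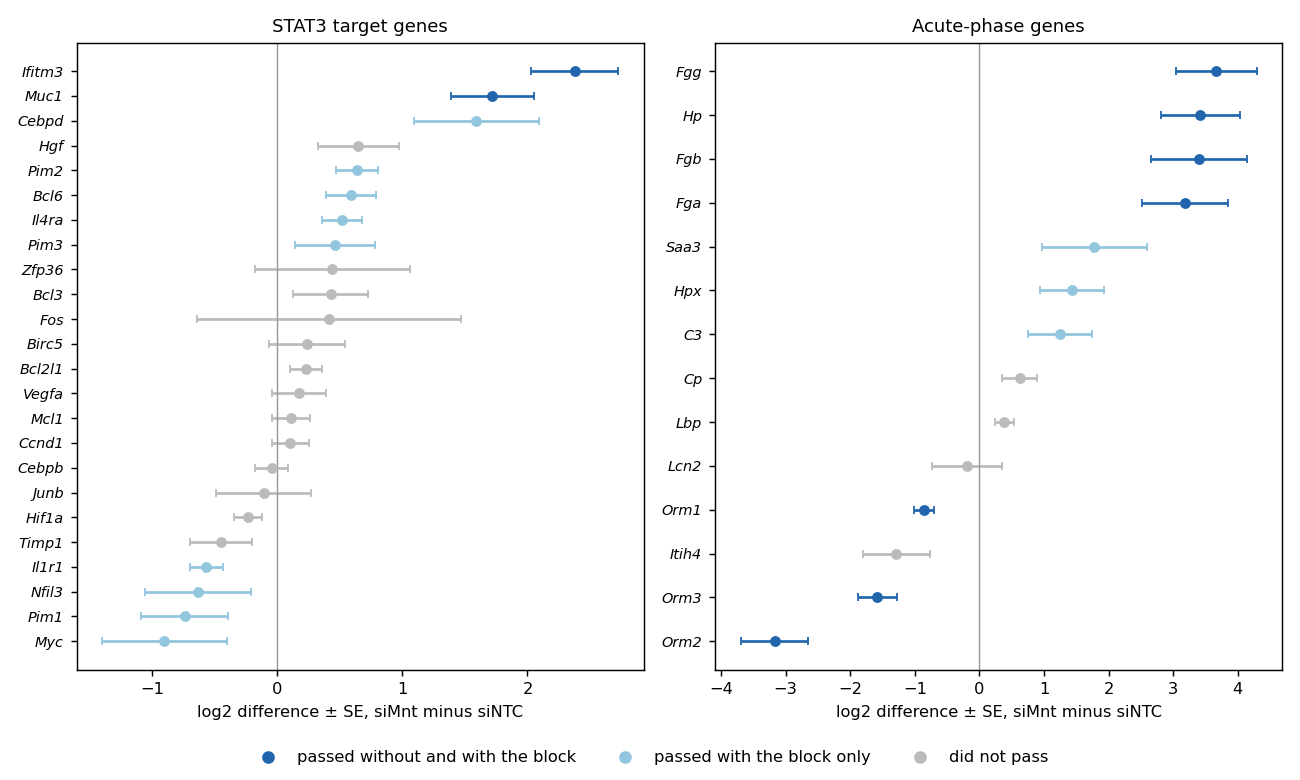
Log2 differences, siMnt minus siNTC, with their SE from the fit without a block, for the tested STAT3 target genes (left) and acute-phase genes (right); dark blue genes passed without and with the replicate block, light blue with the block alone, grey in neither. Ifitm3 and Muc1 are the 2 dark blue genes on the left, and on the right Hp and the 3 fibrinogen chains lie between 3.19 and 3.67 and the 3 orosomucoid genes between -3.17 and -0.85.

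Genes known upstream of Il11 were measured too. Of 19 tested Smad, TGF-beta receptor, AP-1 and related factor genes 0 passed by limma, against 3.93% of all tested genes. An unadjusted p under 0.05 (limma) was found for 1 of them, and for 2938 of all 12568 tested genes. On this list edgeR and DESeq2 called 0 each, against 3.54% and 11.6% of all tested genes. The most expressed were the receptor genes Tgfbr1, at 8443 ± 2169 in siMnt and 8204 ± 2386 in siNTC, and Tgfbr2, at 9300 ± 973 in siMnt and 8276 ± 1965 in siNTC (SD, n = 3 each). With the block 3 fell, against 6.56% of all tested genes: Jun, a subunit of AP-1 (log2 fold change -1.05), Fosl1, its Fos-type partner (-0.68), and Atf3, a stress-induced relative (-1.26). Jun stood at 253, 599 and 248 in siMnt replicates 1, 2 and 3, against 616, 1407 and 388 in siNTC replicates 1, 2 and 3. It was lower in siMnt within each number, and the groups overlapped because siMnt replicate 2 was above siNTC replicate 3. The median log2 fold change of the list was -0.09.

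Markers of other cell types were read beside these results. The epithelial keratins Krt8 and Krt18 were measured in every library, and the summed level of the 11 epithelial markers in the table ran from 146681 to 158761 in siMnt and from 130576 to 154564 in siNTC, Ehf having risen (adjusted p = 0.0368, limma). The 7 myeloid markers in the table summed to 3385 to 3479 in siMnt and 2202 to 2809 in siNTC. Among them Csf1r and Itgam rose (adjusted p = 0.0242 and 0.0493, limma), Itgam reaching the minimum mean only through siMnt, while the pan-leukocyte marker Ptprc lay between 1.29 and 6.65 in all 6 libraries. Fibroblast markers, 4 in the table, summed to 410.5 to 564 in siMnt and 308 to 396 in siNTC. Endothelial markers, 3 in the table, summed to 62.7 to 74.7 in siMnt and 78.2 to 118 in siNTC, and adipocyte markers, also 3, to 82.1 to 123 in siMnt and 18.3 to 45.2 in siNTC, Fabp4 having risen (adjusted p = 0.0185, limma), likewise entering the fit only through siMnt. Their part in the differences of the members was not tested.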

How the data were processed

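The authors deposited 1 table of normalised read counts, a signal that is never negative, for 14526 genes in 6 libraries. Per the submitters' processing notes, TopHat2 2.1.0, DESeq2 and the mouse build mm9 were used (counting tool, annotation, strand setting, gene filter: not given in the sources used here). From the values themselves, each is a read count divided by 1 factor per library, and 99.76% of the deposited values above 0 gave a whole read within 0.05. The libraries held 22323050 to 42193294 such reads, and no 2 of a group were copies (mean chi-square per gene between replicates 15.2 or more).

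Groups and replicate numbers came from the titles. Whether replicates came from separate cultures is unstated in the labels, and p-values then measure only a spread that may be technical. The 12568 genes averaging 10 or more were fitted together on log2(value + 1) with limma 3.58.1 (R 4.3.3), empirical Bayes with a trend and no block, the threshold being a Benjamini-Hochberg adjusted p under 0.05. Same-numbered libraries deviated together (correlation of deviations from group means across genes 0.28, 0.50 and 0.35 for numbers 1, 2 and 3), so the block result is given where it changes a call. The pairing rests on the replicate numbers in the titles and on these correlations.

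The members, lists and tests were chosen with earlier results of these data known. The rule for named genes took every member, Mnt, from each list the up to 4 passing genes with the smallest adjusted p or else the 2 most expressed, and the 6 genes with a mean of at least 50 nearest to Il11; genes outside it (Fga, Fgb, Orm3, Clcf1, Osm, Il6ra, Il1r1, Jak1, Jak2, Jak3, those called only under the block, and markers) were named after their values were seen. Lengths, shared stretches of 50 bases and exon overlaps came from GENCODE M21, a different build from mm9, and promoter windows from RefSeq GRCm38.p6, matched by symbol for 8 of 8 members. GC content and length were found for 98.8% of tested genes. edgeR 4.0.16 and DESeq2 1.42.0 were run on recovered reads as alternatives, and limma (with and without the block), edgeR and DESeq2 were tested on simulated data. The alternatives were other pseudocounts, filters, scalings, variance models, thresholds, the block, a correction for GC content and length, and leaving out each library. Tables and plots were made with Python 3.11.15, pandas 2.3.3 and matplotlib 3.10.9. Results for some genes of the ligand and transducer lists are not reported here.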

Additional observations from a re-analysis of the deposited data

How the results depend on the processing

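The direction of the log2 fold change of each of the 7 tested members was the same under every alternative run. Il11, Il6st, Stat3 and Socs3 moved by less than the SD of their within-number differences (1.78, 0.32, 0.39 and 0.52) under all 18. This SD was wide for Il11 and narrow for Il11ra1, at 0.039, so it does not compare stability between genes. Lifr had 2.23 with a pseudocount of 5, and Il11ra1 -0.19 with quantile normalisation. Leaving out 1 library at a time gave ranges of -4.36 to -3.11 for Il11, -1.16 to -0.23 for Lif, 0.33 to 0.60 for Il6st, -0.21 to -0.073 for Il11ra1, 2.64 to 3.48 for Lifr, 0.49 to 0.92 for Stat3 and 0.44 to 0.77 for Socs3.

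Counts of calls depended on the setting. Of 2 members called by limma, 1 remained with a minimum mean of 50, Il11, since Lifr is then not tested. There were 4 with the replicate block, 4 with the replicate block and GC and length correction, 4 by DESeq2, and 0 to 4 when 1 library was left out. Of 95 tested genes on the 7 lists 12 were called, 7 with a minimum mean of 50, 6 with no trend, 35 with the replicate block, 37 with the replicate block and GC and length correction, 20 by DESeq2, and 0 to 29 when 1 library was left out. Over all tested genes the 494 calls became 322 with a minimum mean of 50, 306 with no trend, 1998 with the replicate block, 967 with GC and length correction, 2354 with both, 1457 by DESeq2, 1336 at an adjusted p under 0.1, and 0 to 2012 when 1 library was left out. Among these 6 fits the highest count came on leaving out siNTC replicate 3, and 0 on leaving out siMnt replicate 1, siMnt replicate 2 or siNTC replicate 1 (1816, 1920 and 2193 genes at an unadjusted p under 0.05; edgeR 0 in each, DESeq2 447, 554 and 710). With fewer genes tested or fewer libraries the fit itself changes; otherwise the cause was not tested. The low read counts of Il6 and Lifr limit what can be said of their size of change.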

Other observations

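Among the Janus kinases, which carry the signal of gp130, Jak2 had by far the most counted reads. It ranged from 35074 to 63619 normalised read counts over the 6 libraries and had rank 20 of 14526 genes by its mean, whereas Jak1 ranged from 5086 to 6420. Per kb of the longest transcript the mean level of Jak2 was 9.39 times that of Jak1 and had rank 97 of 14305 genes with a length. Whether some of the reads counted for Jak2 came from another locus cannot be checked from a table of gene values, so its rank and its ratio to Jak1 describe counted reads and may not give the level of the transcript. Its groups overlapped, with 58484, 53455 and 57708 in siMnt replicates 1, 2 and 3 against 57020, 35074 and 63619 in siNTC replicates 1, 2 and 3 (adjusted p = 0.713, limma). Jak3, at 514, 434 and 556 in siMnt replicates 1, 2 and 3, stood at 128, 110 and 384 in siNTC replicates 1, 2 and 3 (log2 fold change 1.50 ± 0.43, adjusted p = 0.0866, or 0.0112 with the block, limma), the third control being again the nearest to siMnt.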
